A study of Mus musculus with 6 samples.

Results

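The enzymes described here are those of glycolysis, of the fate of pyruvate and of the citric acid cycle, 40 genes chosen by name for their place in these pathways. A probe set carrying the gene's symbol was found for 34 of them among the 17370 probe sets of the table. Gpi1, Gapdh, Pgk1, Pgam1, Eno1 and Ldha had no such probe set and were not analysed here as genes, although control probe sets for Gapdh are described below. The study used 6 arrays, each of habenula RNA from adult mice of 6 to 12 weeks. All mice belonged to the Chat DW167 line, a bacterial artificial chromosome transgenic strain made for translating ribosome affinity purification (TRAP), in which ribosomes of the cells that use the choline acetyltransferase gene can be pulled down with the messenger RNA they carry. In the 3 IP arrays the RNA is the purified one, labelled as coming from medial habenula cholinergic neurons. In the 3 UB arrays it is what the purification of the same preparation left behind, labelled as polysomal RNA of the whole tissue, so UB is not a tissue without cholinergic neurons. Both fractions come from mice with the same transgene, and the labels name no treatment. The IP preparations are labelled as biological replicates, with no word on how many mice went into each.

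Glycolysis turns glucose into pyruvate in the cytosol. Its pace is set mainly at hexokinase, phosphofructokinase and pyruvate kinase. Pyruvate is then reduced to lactate, carboxylated to oxaloacetate, or oxidised to acetyl-CoA by the pyruvate dehydrogenase complex of mitochondria, which pyruvate dehydrogenase kinases switch off and phosphatases switch on. The citric acid cycle oxidises acetyl-CoA and feeds the respiratory chain. In brain, many of these steps have several isoforms that differ between neurons and glia: pyruvate carboxylase and aldolase C are best known from astrocytes, and enolase 2 from neurons.

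Levels are the deposited log2 values. A difference is IP minus UB on the log2 scale after a small offset between fractions, taken from 18 biotinylated controls, was subtracted, and is given with its standard error (SE). For single probe sets this SE leaves out that of the offset itself, 0.21 over arrays. A probe set was tested if at least 3 of the 6 arrays reached 50 on the linear scale (5.64 on the log2 scale), which held for 8960 probe sets. A call is an adjusted p under 0.05 in limma over all of these. Lists of cell type markers, chosen with earlier results of these data known, describe the fractions. All 10 markers of cholinergic medial habenula neurons were called higher in IP, with a summed linear level of 67344 to 93753 on the IP arrays and 9509 to 16237 on the UB arrays. All 10 astrocyte markers were called lower, with sums of 1549 to 2500 in IP and 20500 to 22719 in UB, and 8 of them (Slc1a2, Slc1a3, Aldh1l1, Gfap, Aqp4, S100b, Gjb6 and Sox9) were under 50 on every IP array. All 7 oligodendrocyte markers with a probe set and all 5 thalamic neuron markers were lower too. Of the 6 microglia markers, 5 were tested and 4 were called lower. The other tested one, C1qa, was not called, with every IP value above every UB value (0.88 ± 0.43, adjusted p = 0.12). The 5 endothelial markers were under 50 on every IP array, and 0 of them were tested. Pecam1, Flt1 and Vwf were under 50 on every UB array too, so their low IP levels show no depletion. Of the 5 choroid plexus and ependyma markers, 2 were tested and both were lower. Conversely, the 3 tested markers of hippocampal and cortical neurons, of 5 with a probe set, were higher in IP, with sums over the 5 of 3925 to 9413 against 422 to 1951. Prox1 and Tbr1, not tested, were under 50 on every array, at 2.10 in IP and at 2.93 and 3.57 to 3.94 in UB. In such bulk RNA, fewer cells of a type and less RNA per cell cannot be told apart. On the replicate 1 array of each fraction the Gapdh control probe set at the 5′ end lay furthest below the one at the 3′ end, by -2.18 in IP and -2.03 in UB, against -1.72 to -1.44 on the other 4 arrays (this gap is in common use as a measure of how complete the amplified RNA was). For the beta-actin control probe sets this gap was -3.37, -3.02 and -3.07 on the IP arrays and -3.68, -3.43 and -3.26 on the UB arrays. Replicate 1 was lowest within each fraction there too, but UB replicate 2 lay below IP replicate 1. The part of these marker and RNA measures in the results below was not tested, unless a value is given.

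Of 32 enzymes tested, 16 were not called different between IP and UB, while 30.9% of all tested probe sets were called higher and 43.5% lower. Pfkm, a phosphofructokinase subunit, was 7.33-fold lower in IP, and Pdk4, a kinase of pyruvate dehydrogenase, was at least 3.83-fold lower. Pdk2, another such kinase, was 2.70-fold higher, a call that ended in 7 of 9 runs with arrays left out (adjusted p from 0.0601 to 0.212). Suclg2, of the GTP-forming succinyl-CoA ligase, was 5.45-fold lower. Of the 34 enzymes with a probe set, 32 passed the filter on dim probe sets, and Hk2 and Pcx did not. Of the 32 tested, 3 were called higher, against a background of 30.9% of all tested probe sets, and 13 were called lower, against a background of 43.5%. As shares of the 32 these are 9.38% and 40.6%. At least a 2-fold difference was called upward for 1 enzyme (14.3% of all tested probe sets) and downward for 7 (28% of all) by fitted values. The 7 include Pfkfb3, which was dim in IP and has a bound of only 1.08-fold. With levels under 50 throughout a fraction set to 50, a count added after the values were seen, they were 1 (12.7% of all) and 6 (23.1% of all). After the offset the 3 IP values lay above the 3 UB values for 5 enzymes (33.4% of all tested probe sets) and below them for 15 (46.6% of all). On the deposited values they lay below for 14, since Dlat separates only after the offset. The median difference of the 32 was -0.10, and that of all tested probe sets -0.17.

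**Figure D1:**
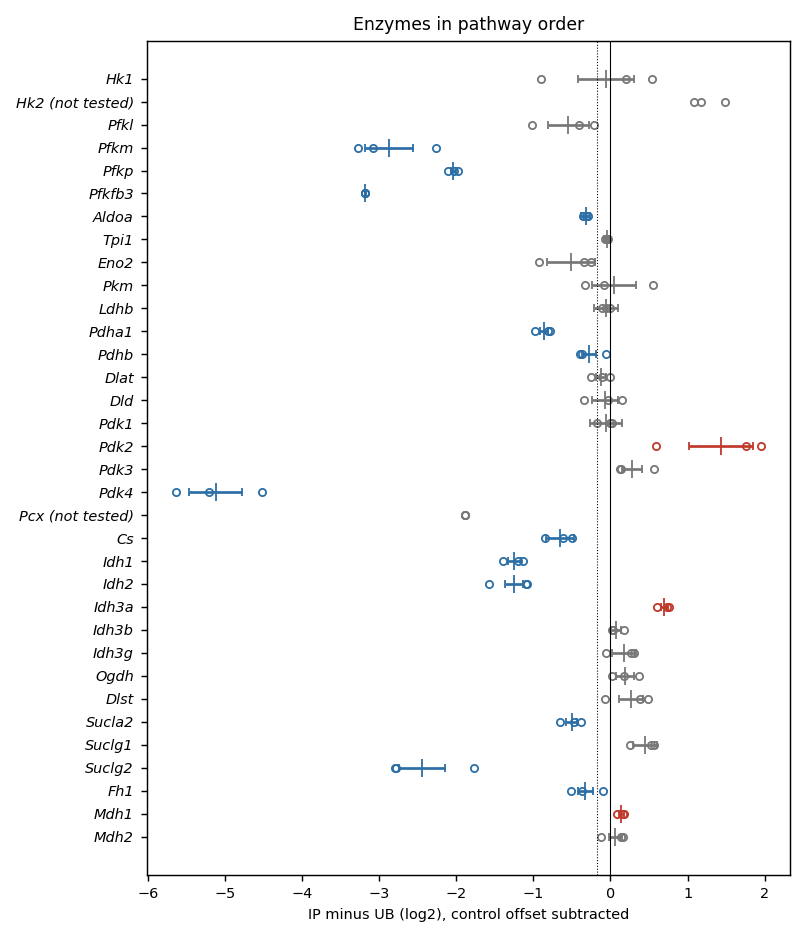
Difference between IP and UB for the 34 enzymes with a probe set, in pathway order. Open circles are the 3 preparations, ticks with bars the limma estimate and its SE, red marks calls higher and blue marks calls lower, and the dotted line is the median of all tested probe sets. Of the tested enzymes, Pfkm, Pfkp, Pfkfb3, Pdk4 and Suclg2 lie at or below -2.04 and Pdk2 reaches 1.43. Pfkfb3 and Pdk4 were dim on every IP array, so their distance from 0 is not measured beyond the bounds in the text.

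The scaling between the fractions bears on every small difference. The authors normalized replicates within groups. An alternative that gives all arrays the same median level over all probe sets but controls, dim ones included, is called equal medians here. It moved IP up by 1.56 relative to UB. Making the medians of the tested probe sets alone equal moved IP up by 0.34. Under equal medians 26 enzymes were called higher and 5 lower, and differences between -1.56 and 0 turned positive, those of Tigar, Pdhx, Me1, Gpd1l, Gpd2 and Taldo1 below among them. With the control offset taken from each array on its own, the calls of Aldoa, Pdhb, Sucla2, Fh1 and Mdh1 ended (adjusted p from 0.126 to 0.686). The 5 enzymes that were called lower under every scaling tried were Pfkm, Pfkp, Pfkfb3, Pdk4 and Suclg2, and Pdk2 and Idh3a were called higher under each. The differences of Pdk3, Ogdh, Dlst and Suclg1 were above 0 under each, with a call under some. Comparisons of 2 isoforms on the same array, given below, do not use an offset.

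At the entry to glycolysis, hexokinase 1, the main brain form, did not pass the test. Hk1 (probe set 15275_at) stood at 8.94, 9.85 and 10.07 on the IP arrays and at 9.83, 9.29 and 9.86 on the UB arrays. The fractions overlapped, and the difference was -0.05 ± 0.36 (adjusted p = 0.899). Its lowest IP value was that of replicate 1, the preparation with the largest gap between the Gapdh probe sets; without both arrays of replicate 1 the difference was 0.37 (adjusted p = 0.311). Hk2, the hexokinase of muscle and fat, was under 50 on all arrays, at 4.36 to 4.96 in IP and 3.26 to 3.77 in UB, so no fold is given.

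Phosphofructokinase is a tetramer of liver (Pfkl), muscle (Pfkm) and platelet (Pfkp) type subunits, and 2 of the 3 genes were called lower (43.5% of all tested probe sets were). Pfkm (18642_at) stood at 9.58, 9.10 and 9.99 in IP and at 12.84, 12.16 and 12.24 in UB. Every IP value was below every UB value, by -2.87 ± 0.31 (adjusted p = 0.000819). Pfkp (56421_at) stood at 6.44, 6.44 and 6.48 in IP and at 8.53, 8.45 and 8.45 in UB, again with no overlap, and was 4.11-fold lower (-2.04 ± 0.03, adjusted p = 3.54e-07). Its UB values of replicates 2 and 3 were tied and its IP values of replicates 1 and 2 nearly so, which makes this SE and p too small. Pfkl (18641_at) stood at 9.50, 10.20 and 10.44 in IP and at 10.50, 10.60 and 10.64 in UB. The IP values were all below the UB values, but the difference of -0.55 ± 0.26 was not called (adjusted p = 0.12), and it was 1.01 under equal medians. The balance between the subunits was compared on the same array. Relative to Pfkm, Pfkl was 5.01-fold higher in IP than in UB (2.33 ± 0.42). Relative to Pfkp it was 2.81-fold higher (1.49 ± 0.28), and Pfkp relative to Pfkm was 1.78-fold higher (0.84 ± 0.31). With quantile normalization, Pfkl minus Pfkp changed by 0.92 and Pfkp minus Pfkm by 1.47. In each of these 3 pairs the IP and UB arrays did not overlap (exact permutation test, two-sided p = 0.1, the smallest that 3 against 3 arrays allow; 0.144 adjusted over the 13 pairs).

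The stretches before the start sites of Pfkl and Pfkp are shown because the balance of these subunit genes was compared above and each has a single start in the RefSeq table (build GRCm38.p6). Both lie on the minus strand, at chr10:78009808-78010057 and chr13:6648772-6649021, and are printed 5′ to 3′ over the 250 bases before the start. Capitals mark ACGTG or GCGTG on either strand, the core of the sites bound by hypoxia-inducible factors, which are known regulators of glycolytic genes.
Pfkl: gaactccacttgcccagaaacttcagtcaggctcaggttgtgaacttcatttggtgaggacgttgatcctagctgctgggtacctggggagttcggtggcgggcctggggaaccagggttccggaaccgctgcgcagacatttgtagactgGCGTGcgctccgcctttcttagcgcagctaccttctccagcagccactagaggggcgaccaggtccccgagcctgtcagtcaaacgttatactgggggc
Pfkp: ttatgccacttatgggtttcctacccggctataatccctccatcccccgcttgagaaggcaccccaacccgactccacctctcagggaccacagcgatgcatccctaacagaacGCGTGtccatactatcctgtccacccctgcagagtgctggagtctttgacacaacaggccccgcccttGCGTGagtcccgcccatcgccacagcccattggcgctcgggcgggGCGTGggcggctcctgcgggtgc
Pfkl held 1 match and Pfkp 3. Of 50 start sites of 33 members in the table, 66% held a match, and of all 32851 start sites 38.6%. Starts of 1 gene are not separate: the 6 of Ogdh all held a match, and several of their stretches overlap. By gene, 24 of the 33 members held a match before at least 1 start. The 6 members without a probe set, and Idh3a, which had no stretch here, were left out of this count. The members' stretches were also richer in CpG, with a median of 15 against 6, so the shares are not compared at equal base composition.

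Pfkfb3 makes and breaks down the strongest activator of phosphofructokinase, and is known for its low protein level in neurons. The gene (170768_at) stood at 2.58 on all 3 IP arrays and at 5.75 on all 3 UB arrays, just over the level of 50. It was at least 1.08-fold lower in IP (adjusted p = 1.24e-12). Values tied on all arrays of a fraction carry no replicate spread, so this p rests on the ties. Tigar, a phosphatase that opposes this enzyme and was named after its values were seen, was at least 2.06-fold lower (adjusted p = 1.38e-07).

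Of the 4 tested members of lower glycolysis, Aldoa, Tpi1, Eno2 and Pkm, only Aldoa was called (lower, as were 43.5% of all tested probe sets). Aldoa (11674_at), the main aldolase of brain, stood at 14.94, 15.06 and 15.02 in IP and at 15.24, 15.40 and 15.30 in UB. The fractions did not overlap, and Aldoa was called 1.25-fold lower (-0.32 ± 0.06, adjusted p = 0.0049), but its difference was 1.24 under equal medians, and the call ended without replicate 3 (adjusted p = 0.07). Aldoc, the astrocyte form, was not a member of the list and stood at 10.05 ± 0.24 in IP and 14.03 ± 0.16 in UB (mean ± SD, n = 3), 15.9-fold lower (-3.99 ± 0.16, adjusted p = 1.53e-05). Relative to Aldoc on the same array, Aldoa was 12.7-fold higher in IP than in UB, at 4.71 to 5.11 against 1.23 to 1.39 (exact permutation p = 0.1, 0.144 adjusted over the pairs). Astrocyte markers moved the same way as Aldoc, as given above, and their part in its value was not tested.

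Triose phosphate isomerase, Tpi1, stood at 14.44, 14.44 and 14.53 in IP and 14.50, 14.47 and 14.54 in UB, a difference of -0.05 ± 0.03 (adjusted p = 0.277). The array carries 3 control probe sets named for mouse Gapdh, which act as a readout of that gene outside the test. The one at the 3′ end was at 15.06, 15.38 and 15.34 in IP and 14.91, 15.11 and 15.12 in UB. The one in the middle was at 14.14, 14.48 and 14.53 against 14.04, 14.14 and 14.17. The fractions overlapped in both, with IP minus UB at 0.20 ± 0.12 and 0.25 ± 0.13, and at 0.09 ± 0.40 for the one at the 5′ end. Pkm (18746_at), pyruvate kinase, stood at 12.94, 13.43 and 13.98 in IP and 13.26, 13.50 and 13.41 in UB, with overlap and a difference of 0.04 ± 0.29 (adjusted p = 0.899).

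The enolase genes differed in their calls. Eno2 (13807_at), the neuronal form, stood at 12.55, 13.51 and 13.50 in IP and at 13.47, 13.84 and 13.74 in UB. The fractions overlapped, and the difference was -0.51 ± 0.31 (adjusted p = 0.198). Without both arrays of replicate 1, which held the lowest value of each fraction, it was -0.30 and called lower (adjusted p = 0.0169). Eno3 (13808_at), known as the muscle enolase, is outside the list of 40. It stood at 11.70, 12.13 and 12.16 in IP and at 8.23, 8.31 and 8.20 in UB. It was 13.3-fold higher in IP (3.74 ± 0.14, adjusted p = 1.38e-05). Relative to Eno2 on the same array, Eno3 lay at -1.38 to -0.85 in IP and at -5.54 to -5.24 in UB, a change of 4.24 ± 0.20. This pair was chosen after its values were seen and has no test. Eno4, an enolase known from sperm, was at least 2.16-fold lower in IP (adjusted p = 1.61e-06). Whether probes of the enolase genes share signal could not be examined.

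**Figure D2:**
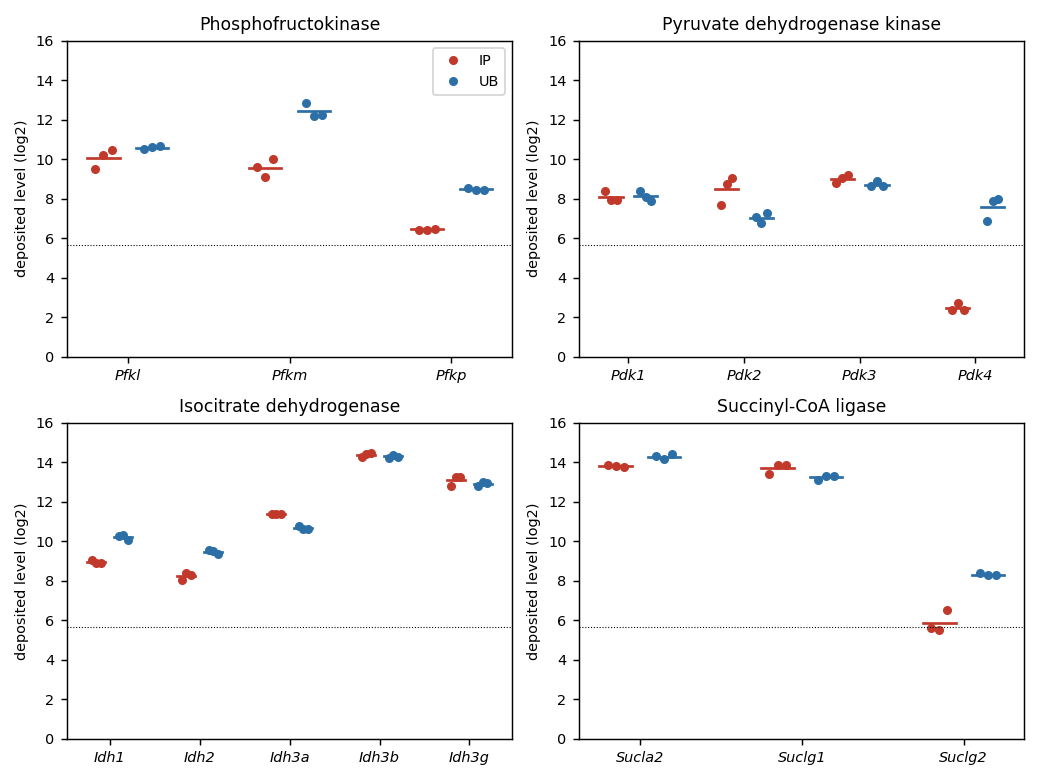
Deposited log2 levels on the 3 IP arrays (red) and 3 UB arrays (blue) for 4 steps with several genes, with the mean as a bar and the level of 50 as a dotted line. Pfkm, Pfkp, Pdk4, Idh1, Idh2 and Suclg2 lie lower in IP, while Pdk2 and Idh3a lie higher.

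Lactate dehydrogenase B, the heart-type subunit, which favours lactate use, showed no difference past the test. Ldhb (16832_at) stood at 14.19, 14.63 and 14.53 in IP and 14.28, 14.62 and 14.57 in UB (-0.06 ± 0.16, adjusted p = 0.762), and the values of the fractions followed each other by preparation.

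Of the pyruvate dehydrogenase complex, 2 of 4 genes were called lower and 0 higher, beside 43.5% and 30.9% of all tested probe sets. Pdha1 (18597_at), the catalytic alpha subunit, stood at 8.28, 8.45 and 8.45 in IP and at 9.25, 9.23 and 9.25 in UB. The fractions did not overlap, and it was 1.81-fold lower (-0.86 ± 0.05, adjusted p = 0.000104), but its difference was 0.70 under equal medians. In the other 19 alternatives tried Pdha1 was still called lower. Pdhb, the beta subunit, was at 13.30 to 13.35 against 13.39 to 13.72 and was called lower by a small margin (-0.28 ± 0.09, adjusted p = 0.0477); with the replicate number as a block its adjusted p was 0.0854. The call also ended without any 1 array other than UB replicate 3 (adjusted p from 0.105 to 0.134). The difference was 1.28 under equal medians. Dlat, the acetyl transferase core, was at 10.50 in IP and 10.49 to 10.74 in UB (-0.12 ± 0.07, adjusted p = 0.161, and 0.0434 without UB replicate 3). Dld, the dehydrogenase shared with the oxoglutarate complex, was at 11.02 to 11.42 against 10.98 to 11.43 (-0.07 ± 0.17, adjusted p = 0.718).

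The pyruvate dehydrogenase kinases phosphorylate Pdha1 and stop the complex, and 2 of the 4 were called, in opposite directions. Among all tested probe sets, 30.9% were called higher and 43.5% lower. Pdk2 (18604_at) stood at 7.67, 8.74 and 9.05 in IP and at 7.06, 6.77 and 7.28 in UB. Every IP value was above every UB value (1.43 ± 0.41, adjusted p = 0.0281). The lowest IP value was that of replicate 1, and without both arrays of replicate 1 the difference was 1.86 (adjusted p = 0.0173). Without IP replicate 1 alone it was 1.84 (adjusted p = 0.00284). Leaving out any 1 of the other 5 arrays, or both arrays of replicate 2 or 3, ended the call (adjusted p from 0.0601 to 0.212), while the difference stayed between 1.15 and 1.56. Pdk4 (27273_at), which rises in fasting in many tissues, stood at 2.37, 2.69 and 2.37 in IP and at 6.87, 7.88 and 7.99 in UB. The IP arrays were far under the level of 50 and the UB arrays above it, and Pdk4 was at least 3.83-fold lower (adjusted p = 0.000128). Pdk1 was at 7.91 to 8.41 in IP and 7.91 to 8.38 in UB (-0.06 ± 0.20, adjusted p = 0.808). Pdk3 was at 8.79 to 9.21 against 8.63 to 8.87 (0.28 ± 0.13, adjusted p = 0.12, and 0.0401 without IP replicate 1).

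On the same array, Pdk2 relative to Pdk4 was higher in IP than in UB by at least 3.37 on the log2 scale, with dim Pdk4 values set to 50. The same bound was 2.21 for Pdk3 and 1.88 for Pdk1 relative to Pdk4. Pdk2 relative to Pdk3 was 2.23-fold higher (1.16 ± 0.37). In these 4 pairs the fractions did not overlap (exact permutation p = 0.1, 0.144 adjusted over the pairs). Pdk2 relative to Pdk1 overlapped (1.49 ± 0.62, exact p = 0.2, adjusted 0.26), as did Pdk3 relative to Pdk1 (0.34 ± 0.33, exact p = 0.4, adjusted 0.473).

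The stretches of 250 bases before the starts of Pdk2 and Pdk4 are shown since these kinases had the opposite calls. Pdk2 has 2 starts in the RefSeq table (GRCm38.p6, minus strand), at chr11:95041372-95041621 and chr11:95040876-95041125, and Pdk4 has 1 at chr6:5496279-5496528 on the minus strand. Capitals mark ACGTG or GCGTG on either strand as before.
Pdk2 first: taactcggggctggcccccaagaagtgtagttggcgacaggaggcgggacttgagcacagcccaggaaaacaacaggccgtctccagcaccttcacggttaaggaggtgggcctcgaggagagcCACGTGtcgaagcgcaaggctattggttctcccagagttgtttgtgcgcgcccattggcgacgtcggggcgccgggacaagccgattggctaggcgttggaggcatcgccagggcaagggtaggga
Pdk2 second: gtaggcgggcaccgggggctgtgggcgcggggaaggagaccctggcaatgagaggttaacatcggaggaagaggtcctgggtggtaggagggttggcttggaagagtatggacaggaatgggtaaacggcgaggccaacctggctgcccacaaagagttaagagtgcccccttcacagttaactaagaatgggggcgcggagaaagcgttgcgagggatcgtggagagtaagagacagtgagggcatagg
Pdk4: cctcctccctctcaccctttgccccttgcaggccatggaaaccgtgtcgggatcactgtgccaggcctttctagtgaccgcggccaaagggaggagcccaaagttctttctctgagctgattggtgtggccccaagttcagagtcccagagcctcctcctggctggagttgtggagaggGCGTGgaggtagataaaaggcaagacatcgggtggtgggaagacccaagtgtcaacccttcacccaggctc
The 2 matches before the first Pdk2 start overlap, since the letters CACGTG read the same on both strands. The stretch before the second start held 0, and that of Pdk4 held 1.

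Pyruvate carboxylase, which refills the cycle with oxaloacetate and is known in brain from astrocytes, was dim. Pcx (18563_at) was at 2.53 in every IP array and 4.39 in every UB array, under 50 throughout, and was not tested. The array has 4 control probe sets named for mouse pyruvate carboxylase. The one at the 3′ end was at 5.54 on all 3 IP arrays and at 8.39, 8.25 and 8.20 in UB, and so at least 6.22-fold lower in IP. The other 3, named for the middle and the 5′ end, were at 2.045 to 2.66 on all arrays, near the lowest level of the table. These control probe sets were outside the test.

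In the citric acid cycle, 14 of 14 genes were tested, 2 were called higher and 6 lower. These are 14.3% and 42.9% of the 14, beside 30.9% and 43.5% of all tested probe sets. Cs (12974_at), citrate synthase, which opens the cycle, stood at 10.78, 11.36 and 11.25 in IP and at 11.62, 11.84 and 11.85 in UB. The IP values were all lower (-0.65 ± 0.18, adjusted p = 0.0257), but the difference was 0.91 under equal medians. The Cs call ended without IP replicate 3, UB replicate 2 or UB replicate 3, or without both arrays of replicate 2 or 3 (adjusted p from 0.052 to 0.148).

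Of the isocitrate dehydrogenases, both NADP-dependent forms were called lower, as were 43.5% of all tested probe sets. These supply reducing power, Idh1 in the cytosol and Idh2 in mitochondria. Idh1 (15926_at) stood at 9.07, 8.93 and 8.93 in IP and at 10.26, 10.31 and 10.05 in UB. It was 2.38-fold lower (-1.25 ± 0.09, adjusted p = 0.000142), with no overlap. Idh2 (269951_at) stood at 8.02, 8.41 and 8.31 in IP and at 9.59, 9.49 and 9.37 in UB, and was also 2.38-fold lower (-1.25 ± 0.12, adjusted p = 0.000562). Under equal medians both differences were 0.31, and in the other 19 alternatives tried both genes were still called lower. Idh1 minus Idh2 overlapped between the fractions and changed by 0.00 ± 0.17 (exact permutation p = 1).

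The NAD-dependent enzyme carries the flux of the cycle, and its catalytic subunit gene was higher. Idh3a (67834_at) stood at 11.40, 11.39 and 11.40 in IP and at 10.78, 10.64 and 10.63 in UB. Every IP value was above every UB value, and Idh3a was 1.62-fold higher (0.70 ± 0.05, adjusted p = 0.000155). Over all alternatives tried it was called higher, from 0.65 to 2.26. The partner subunits Idh3b and Idh3g overlapped between fractions, at 14.28 to 14.48 against 14.23 to 14.38 (0.07 ± 0.07, adjusted p = 0.369) and at 12.79 to 13.27 against 12.83 to 12.99 (0.17 ± 0.16, adjusted p = 0.356). Whether Idh3a and the NADP forms differ from each other in their change was not tested.

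The oxoglutarate dehydrogenase genes were not called. Ogdh, the rate-setting first subunit, was at 8.91, 8.91 and 9.26 in IP and 8.87, 8.72 and 8.88 in UB (0.19 ± 0.12, adjusted p = 0.204). Dlst, the succinyl transferase core, was at 11.27, 11.45 and 11.78 against 11.32, 11.05 and 11.28 (0.27 ± 0.16, adjusted p = 0.189).

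Succinyl-CoA ligase joins a shared alpha subunit, Suclg1, with a beta subunit that sets the product, Sucla2 for ATP and Suclg2 for GTP. Suclg2 (20917_at) stood at 5.62, 5.51 and 6.52 in IP and at 8.38, 8.29 and 8.27 in UB. The fractions did not overlap, and 2 of the 3 IP arrays were under 50 (-2.45 ± 0.30, adjusted p = 0.00127). Sucla2 (20916_at) stood at 13.85, 13.80 and 13.77 in IP and at 14.31, 14.16 and 14.41 in UB, 1.42-fold lower (-0.51 ± 0.07, adjusted p = 0.00246), and its difference was 1.05 under equal medians. Suclg1 (56451_at) stood at 13.40, 13.87 and 13.87 in IP and at 13.13, 13.29 and 13.32 in UB. Its IP values were all above the UB values, but it was not called (0.45 ± 0.16, adjusted p = 0.0524); with the block it was called higher (adjusted p = 0.0264), as it was without IP replicate 1 (adjusted p = 0.00338). Relative to Suclg2 on the same array, Sucla2 was 3.84-fold higher in IP than in UB, at 7.25 to 8.29 against 5.87 to 6.14 (1.94 ± 0.35, exact permutation p = 0.1, 0.144 adjusted over the pairs). With quantile normalization, Sucla2 minus Suclg2 changed by 0.96.

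At the last steps, 2 of 3 genes were called, each with a small difference, Mdh1 higher and Fh1 lower (30.9% and 43.5% of all tested probe sets). Fh1, fumarase, was at 11.29 to 11.64 in IP and 11.73 to 11.78 in UB and was called lower (-0.33 ± 0.10, adjusted p = 0.0326), though not with the block (adjusted p = 0.0766), nor without IP replicate 3 or any 1 of the UB arrays (adjusted p from 0.0741 to 0.0933). Under equal medians its difference was 1.23. Mdh1, the cytosolic malate dehydrogenase of the malate-aspartate shuttle, was at 15.28 on all 3 IP arrays and at 15.18, 15.08 and 15.09 in UB. It was called higher by 1.10-fold (0.14 ± 0.03, adjusted p = 0.0093), a call with tied IP values that ended without replicate 2 or replicate 3 (adjusted p = 0.094 and 0.103). Its difference was -0.12 with quantile normalization. Mdh2, the mitochondrial form, was at 14.41 to 14.69 against 14.51 to 14.52 (0.06 ± 0.08, adjusted p = 0.555). Mdh1 relative to Mdh2 overlapped between fractions (0.08 ± 0.09, exact permutation p = 0.5, 0.542 adjusted).

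**Figure D3:**
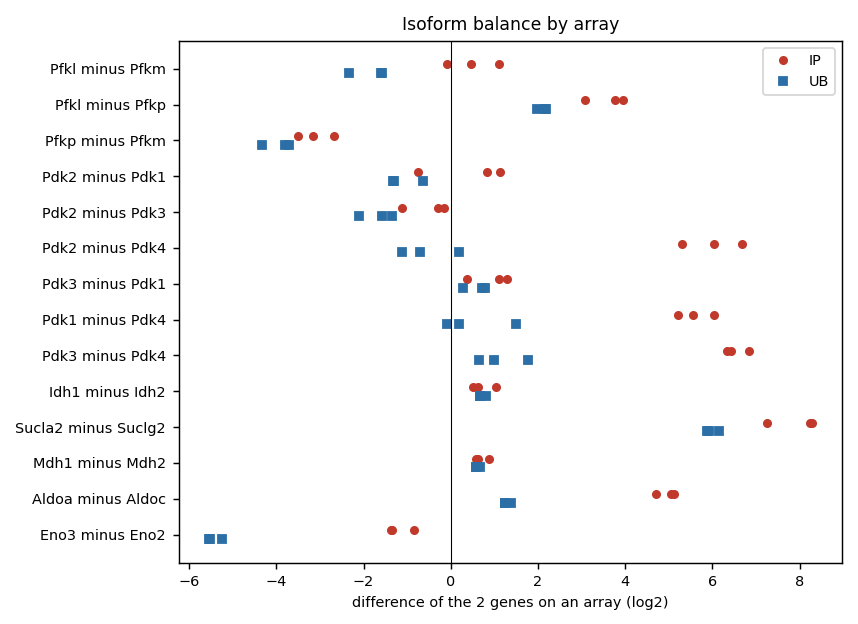
Difference of 2 genes on each array, log2, for the 13 isoform pairs tested and the enolase pair added later, with IP arrays as red circles and UB arrays as blue squares. The fractions separate in 9 of the 13 pairs, and overlap for Pdk2 and Pdk1, Pdk3 and Pdk1, Idh1 and Idh2, and Mdh1 and Mdh2. Among single tested probe sets, IP lay wholly above UB for 33.4% and wholly below for 46.6%. A share over all possible pairs was not computed. Several pairs share a gene, such as Pdk4, dim in IP, so they are not separate results.

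A further list of 60 genes of these and adjoining pathways (other isoforms, gluconeogenesis, succinate dehydrogenase, pyruvate dehydrogenase phosphatases, malic enzymes, glycerol phosphate shuttle and pentose phosphate pathway) gave 50 with a named probe set and 35 tested. Of these, 10 were called higher and 17 lower (medians of -0.41 for the list and -0.17 for all tested probe sets), beside the backgrounds of 30.9% and 43.5%. The largest increase after Eno3 was that of Gpd1, the cytosolic glycerol phosphate dehydrogenase, at 10.37, 10.42 and 10.55 in IP against 8.48 in every UB array (3.88-fold, adjusted p = 3.2e-06). The other genes of that shuttle, named after their values were seen, were called lower. The mitochondrial Gpd2 was 1.93-fold lower (adjusted p = 2.04e-05), and Gpd1l, a relative of Gpd1, was 2.28-fold lower (adjusted p = 1.19e-06).

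Of 6 tested genes of the pentose phosphate pathway, 2 were called higher, 2 lower and 2 neither. Over all tested probe sets the shares were 30.9% higher and 43.5% lower. Pgls and Rpe were 3.07-fold and 2.37-fold higher (adjusted p = 0.0453 and 0.0003), and the Pgls call ended when any 1 array but IP replicate 1 was left out (adjusted p from 0.0602 to 0.128). The other 4 were named after their values were seen. Tkt, transketolase, was at 8.21, 9.22 and 9.22 in IP and 10.54, 10.91 and 10.82 in UB, 3.71-fold lower (adjusted p = 0.00507). The Tkt call ended under equal medians (-0.33, adjusted p = 0.344) and without replicate 2 or replicate 3 (adjusted p = 0.0534 and 0.0538). Taldo1, transaldolase, was 1.43-fold lower (adjusted p = 0.0398), a call that ended when any 1 of 4 arrays was left out (adjusted p from 0.1 to 0.116). Pgd and Rpia were not called (-0.02 ± 0.08 and -0.54 ± 0.23, adjusted p = 0.843 and 0.0845), though Rpia was called lower without IP replicate 1 (adjusted p = 0.000142).

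Sdhc, a membrane anchor of succinate dehydrogenase, was 2.53-fold higher (1.34 ± 0.28, adjusted p = 0.00943), a call that ended without replicate 2 or replicate 3 (adjusted p = 0.0829 and 0.0707). Of the other succinate dehydrogenase genes, named after their values were seen, Sdhd, the second anchor, was 1.82-fold higher (adjusted p = 0.00405, and 0.0633 without replicate 2). Sdha and Sdhb, of the catalytic part, were not called (0.08 ± 0.10 and 0.42 ± 0.17, adjusted p = 0.517 and 0.0716), though Sdhb was with the block (adjusted p = 0.0109) and without IP replicate 1 (adjusted p = 0.0441).

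On the lower side, Ldhd, a mitochondrial lactate dehydrogenase of the D form, was at least 1.49-fold lower, and Pgam2, the muscle phosphoglycerate mutase, at least 1.53-fold lower (adjusted p = 3.84e-06 and 4.95e-06). Values were tied on the IP arrays for Pgam2, Pdp2, Eno4 and Tigar and on the UB arrays for Ldhd and Gpd1, so their p-values rest in part on ties. Both pyruvate dehydrogenase phosphatase genes were called lower, as were 43.5% of all tested probe sets. Pdp2 was at least 1.497-fold lower (adjusted p = 6.44e-07). Pdp1, named after its values were seen, was at 10.51 in every IP array and 12.49 in every UB array, a difference of -1.999 ± 0.018 with a p that rests on ties (adjusted p = 4.6e-08). Pdhx, which binds Dld into the pyruvate dehydrogenase complex, was called lower (-0.997 ± 0.17, adjusted p = 0.00461, and 0.0602 without replicate 2) and was also named after its values were seen. Among the malic enzymes, likewise, the cytosolic Me1 was 2.13-fold lower and the mitochondrial Me2 and Me3 were 1.87-fold and 1.69-fold higher (adjusted p = 0.00126, 0.000235 and 0.0223). The Me3 call ended when any 1 of 4 arrays was left out (adjusted p from 0.0587 to 0.0713). Glud1, glutamate dehydrogenase, which feeds oxoglutarate into the cycle and was named after its values were seen, was at 10.44, 10.27 and 10.29 in IP and 12.40, 12.19 and 12.11 in UB, 3.78-fold lower (adjusted p = 4.35e-05).

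**Figure D4:**
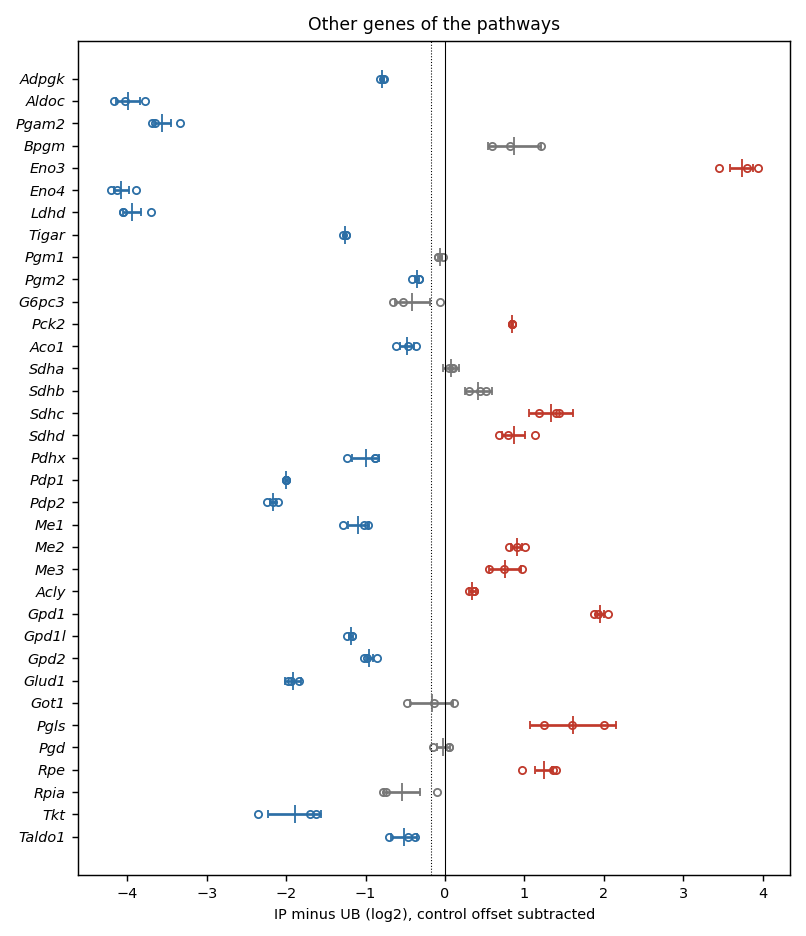
Difference between IP and UB for the 35 tested genes of the further list. Open circles are the 3 preparations, ticks with bars the limma estimate and its SE, red marks calls higher, blue marks calls lower and grey marks no call. Eno3 stands at 3.74 and Gpd1 at 1.96, and Aldoc at -3.99. Eno4, Ldhd, Pgam2, Pdp2 and Tigar were dim on every IP array, so their distance from 0 is not measured beyond the bounds in the text.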

How the data were processed

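Expression was measured on 3 IP and 3 UB arrays starting from 20 ng of RNA, amplified over 2 cycles. The deposited log2 values per probe set were made by the authors with GCRMA, per the labels and the submitters' processing notes, with replicates normalized within groups; its version was not given in the sources used here. Probe sets were named through the platform's gene table, updated by gene identifier to RefSeq GRCm38.p6, and 842 are unnamed here. The mean IP minus UB difference of 18 biotinylated controls (0.016, SD 0.13 over controls, SE 0.21 over arrays) was subtracted from IP. Of 17370 probe sets, 64 of them controls left out of the test, 8960 with at least 3 of 6 arrays at 50 or more were tested with limma 3.58.1 in R 4.3.3 (variances following the mean level, two-sided, Benjamini-Hochberg over all tested). For a fraction dim (under 50) on its 3 arrays, the fold is set against 50 and written as at least. The fractions of one number come from the same preparation per the labels. Deviations of same-numbered arrays from their fraction means correlated by 0.59, 0.48 and 0.28 across genes. Arrays of differing numbers gave -0.51 to -0.34 where 1 of them was replicate 1. IP replicate 2 and UB replicate 3 gave 0.25. IP replicate 3 correlated more with UB replicate 2 (0.31) than with UB replicate 3. The main model had no replicate block. Of the tested probe sets, 2780 had tied values on a whole fraction, which makes their SE and p too small. Ties of 2 arrays of a fraction, as for Pfkp, Pdha1, Idh1, Idh3a, Suclg1 and Ogdh, act the same way and were not counted. Normalizing replicates within groups can also narrow the spread within a fraction for any probe set, which was not tested. Isoform pairs were tested by exact permutation over arrays. The number of arrays, 3 per group, limits the precision. All 40 enzymes were described; of the further list, the 5 largest calls in each direction and Aldoc were named by rule, and other genes as stated. That rule ranked fitted differences, so Eno4, Ldhd, Pgam2 and Pdp2, dim in IP, are named with bounds smaller than the measured decreases of Glud1 and Tkt. Members and lists were chosen with earlier results of these data known. The fit was also run on simulated data with independent normal noise. Ties within a fraction were not modelled there, so that run does not bear on the p-values of tied probe sets. Python 3.11.15, numpy 2.4.6, pandas 2.3.3, scipy 1.17.1 and matplotlib 3.10.9 were used. Signal over background, not read depth, sets what can be measured here.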

Additional observations from a re-analysis of the deposited data

How the results depend on the processing

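Each result was recomputed under 20 alternatives of scaling, filter, floor, ties, replicate block, variance model and arrays left out. Pfkm, Pfkp, Pdk4, Suclg2 and Idh3a kept direction and call under all 20, and Pfkfb3 under the 18 that could be run for it. Under equal medians, the counts called higher and lower were 6680 and 1587 of all probe sets, 26 and 5 of the enzymes and 27 and 7 of the further list. Values that changed sign there were Hk1 1.503, Pfkl 1.01, Aldoa 1.24, Tpi1 1.51, Eno2 1.05, Ldhb 1.5004, Pdha1 0.70, Pdhb 1.28, Dlat 1.43, Dld 1.49, Pdk1 1.499, Cs 0.91, Idh1 0.31, Idh2 0.31, Sucla2 1.05 and Fh1 1.23 and, of the further list, Tigar 0.30, Pdhx 0.56, Me1 0.47, Gpd1l 0.37, Gpd2 0.61, Taldo1 1.04, Pgd 1.54 and Rpia 1.02. With medians equal over tested probe sets alone, 11 enzymes were higher and 8 lower, and the values that changed sign were Hk1 0.28, Aldoa 0.017, Tpi1 0.29, Ldhb 0.28, Pdhb 0.062, Dlat 0.22, Dld 0.27, Pdk1 0.28, Fh1 0.011 and Pgd 0.32. Quantile normalization gave 20 enzymes lower and turned Hk1 to 0.034, Pkm to -0.25, Pdk1 to 0.36, Idh3b to -0.20, Idh3g to -0.094, Mdh1 to -0.12, Mdh2 to -0.21 and Sdha to -0.19. With no filter on dim probe sets, 8557 probe sets were higher and 5998 lower, and 23 of the further list were higher. With tied probe sets left out, 2123 probe sets were lower and 10 of the further list. At a level of 100, 11 of the further list were lower, since fewer were tested. With arrays left out, the count of enzymes called higher ranged from 1 to 7 (7 without IP replicate 1, and 1 without replicate 2 or without replicate 3), and the values that changed sign ranged from -0.35 to 0.37 for Hk1, -0.22 to 0.30 for Pkm, -0.16 to 0.074 for Ldhb, -0.21 to 0.063 for Dld, -0.23 to 0.071 for Pdk1 and -0.062 to 0.065 for Pgd, 6 genes with no call in the main model. The replicate block changed 3 enzyme calls, those of Pdhb, Fh1 and Suclg1. Other than through scaling by construction, the cause of these changes was not tested. Signal close to background limits Pfkfb3, Pdk4 and Suclg2 to bounds or dim IP values.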
